A study of Homo sapiens with 40 samples.

Results

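The difference between the responses of RKO cells to depletion of IGF2BP3 mRNA and to depletion of IGF2BP2 mRNA by small interfering RNA (siRNA) was measured in 16 of the 40 libraries of the study. For each gene it is the effect of the IGF2BP3 pool (siIGF2BP3 against siControl in sgIGF2BP3 cells) minus the effect of the IGF2BP2 pool (siIGF2BP2 against siControl in sgIGF2BP2 cells), on the log2 scale, with 4 libraries in each of the 4 groups. A positive value therefore means that a gene was higher after siIGF2BP3, relative to its control, than after siIGF2BP2. The groups were chosen by their labels and no measured value entered the choice.

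RKO is an established human colorectal carcinoma line, here with Cas9 under a doxycycline (Dox)-inducible promoter and GFP. The sgIGF2BP2 and sgIGF2BP3 lines also carry a pair of guide RNAs against the gene in their name, together with a blue fluorescent protein. Transduced cells were sorted by that protein. The labels give the siRNA groups of these lines no treatment other than the transfection and the nucleoside s4U. Cells received a pool of siRNAs against IGF2BP2 (siIGF2BP2) or IGF2BP3 (siIGF2BP3), or 1 non-targeting siRNA (siControl), at 75 nM for 48 hours, and the nucleoside s4U at 250 µM for 2 hours. Each library came from 1 well, and poly(A) RNA was sequenced, so the p-values below measure the spread between these wells. siIGF2BP2 was given only to sgIGF2BP2 cells and siIGF2BP3 only to sgIGF2BP3 cells, so that pool and line cannot be told apart from the design alone. Under siControl, 2 of the 11428 genes tested (0.0175%) differed between the lines: HMOX1 was higher in sgIGF2BP3 cells (log2 difference 0.24, SE 0.043, edgeR adjusted p = 0.00498) and MSN lower (−0.86, SE 0.16, edgeR adjusted p = 0.00992).

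IGF2BP2 and IGF2BP3 belong to a family of RNA-binding proteins with RRM and KH domains that bind many mRNAs, often in their 3′ untranslated regions, and are reported to read N6-methyladenosine (m6A) and to affect the stability, transport and translation of the bound mRNAs. IGF2BP3 is an oncofetal protein, silent in most adult tissue and made again in many carcinomas, whereas IGF2BP2 is also made in adult tissue, where it is linked to metabolism. Several growth genes, among them HMGA1, MYC and CCND1, are reported to be bound by members of the family.

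The 16 libraries held 10215084 to 19558224 counts (median 13630861.5), and mitochondrial mRNAs took 7.88% to 9.09% of them. EPCAM, KRT8, KRT18, VIM, CD44 and CDX2 were present in every library, KRT19 and CDH2 had at most 1 count, and of the other markers of differentiated colon epithelium each of the 7 had at most 2 counts. Markers of endothelium summed to at most 0.299 CPM (counts scaled to a common library total) and those of fibroblasts to at most 0.783 CPM (COL1A1 at most 0.749 CPM), and the leukocyte list stayed at 1.59 to 3.72 CPM, most of it CD68, with PTPRC at no more than 1 count and CD3E at 0. Of the 5 tested markers of the line, KRT18 (0.55) and CD44 (0.20) were called higher and KRT8 (−0.57) and VIM (−0.30) lower for the difference, and their part in the other results was not tested. The library of siIGF2BP2 replicate 3 stood apart from the other 3 of its group: the chi-square statistic per gene against them was 5.74 to 6.58, compared with 1.498 to 3.66 for the other 21 pairs of replicates. Without it, 2038 in place of 2137 genes were called for the difference, and 1814 of the 2137 (84.9%) were among them. In bulk RNA, fewer cells of a kind and less RNA per cell cannot be told apart.

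Each pool lowered its own target, and the other target was called in neither line. IGF2BP2 (ENSG00000073792, chromosome 3, 185643739 to 185825056, reverse strand, GRCh38) stood at 103, 109, 113 and 109 CPM in the 4 siControl libraries of sgIGF2BP2 cells and at 31.7, 29.6, 29.2 and 30.4 CPM after siIGF2BP2. In sgIGF2BP3 cells it stood at 118, 110.4, 115 and 116 CPM with siControl and at 121, 112, 116 and 109 CPM after siIGF2BP3. The siIGF2BP2 libraries lay far below all others, and the siIGF2BP3 libraries overlapped their controls. The difference between effects was 1.84 (SE 0.066, edgeR adjusted p = 1.51e-34), the highest of the genes named by rule.

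IGF2BP3 (ENSG00000136231, chromosome 7, 23310209 to 23470467, reverse strand, GRCh38) was at 168, 173, 164 and 174 CPM with siControl and at 25.01, 24.9, 26.4 and 22.6 CPM after siIGF2BP3 in sgIGF2BP3 cells. In sgIGF2BP2 cells it was at 173, 171, 185 and 170.1 CPM with siControl and at 176, 169, 163 and 172 CPM after siIGF2BP2. The siIGF2BP3 libraries were the only ones of the 16 that lay apart. The difference between effects was −2.74 (SE 0.065, edgeR adjusted p = 1.95e-45), the lowest of all named genes. IGF2BP1, the third member of the family, had no count in the 16 libraries. The targets were not depleted to the same extent, since 27.9% of IGF2BP2 mRNA and 14.6% of IGF2BP3 mRNA remained. IGF2BP3 shares exon bases with MALSU1 on the opposite strand, and the counting strand is not given in the sources used here.

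**Figure D1:**
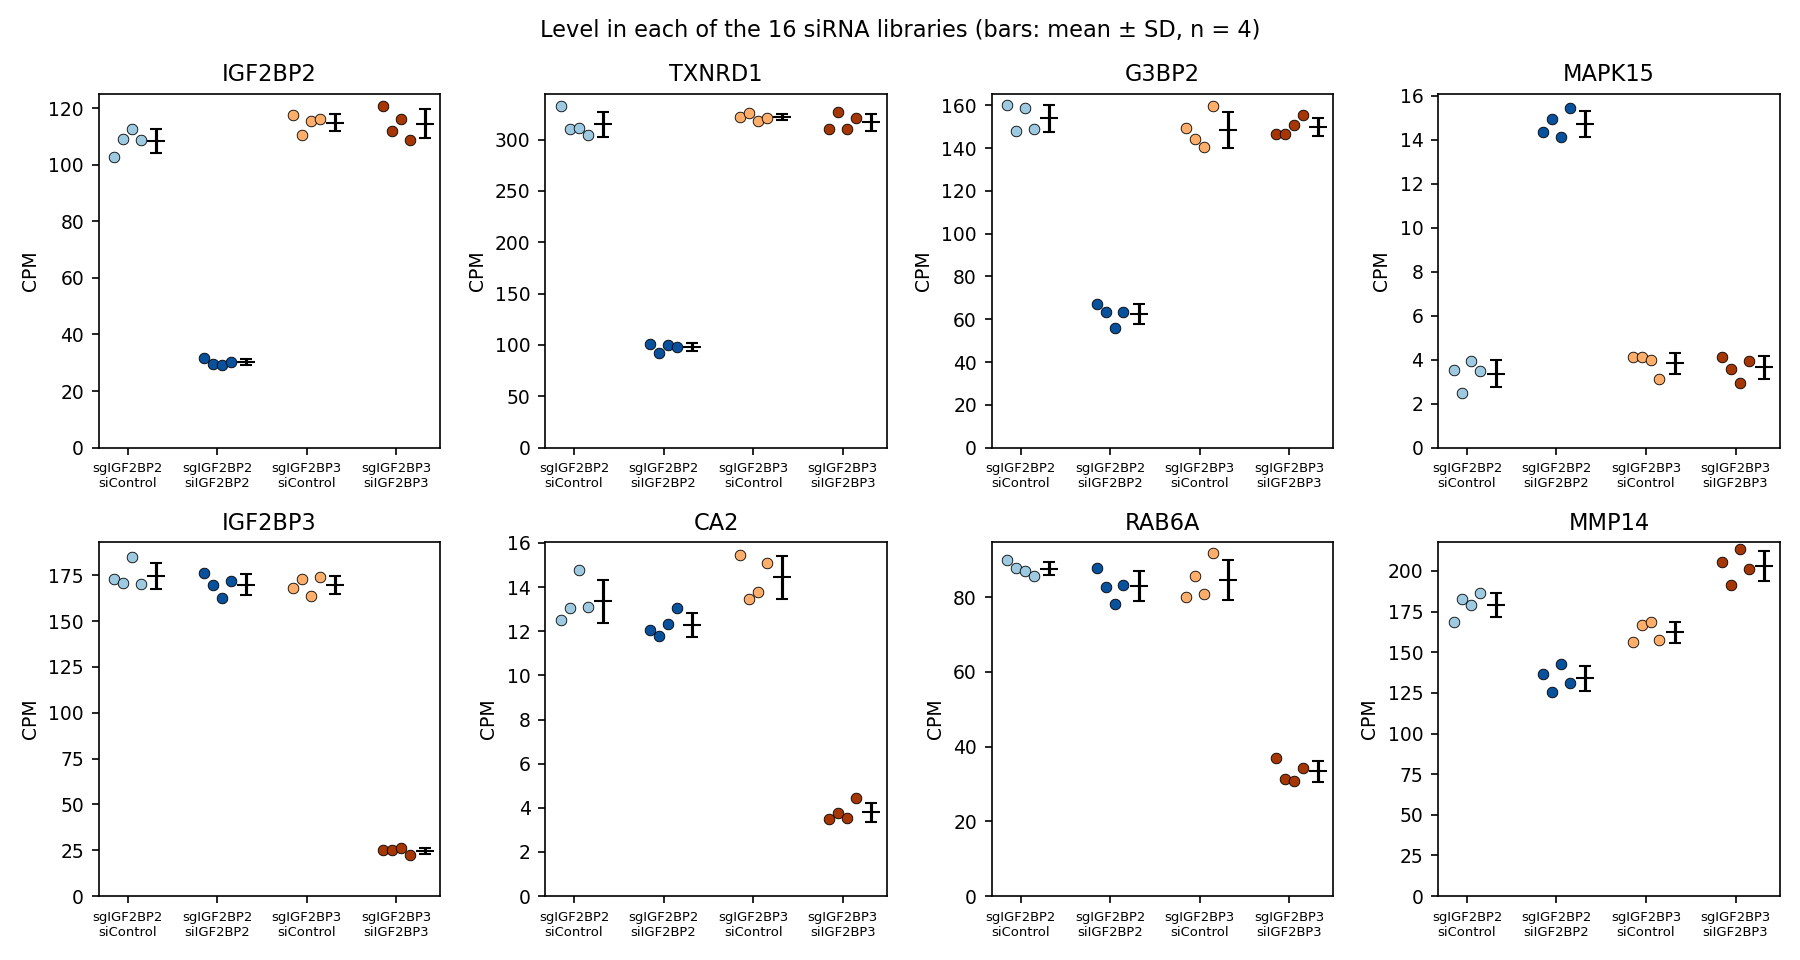
Level in CPM of 8 genes in each of the 16 siRNA libraries. Points are libraries, bars the mean ± SD of 4, and colours the 4 groups. IGF2BP2, TXNRD1 and G3BP2 are low and MAPK15 is high in the siIGF2BP2 group, IGF2BP3, CA2 and RAB6A are low in the siIGF2BP3 group, and MMP14 moves in opposite directions in the 2 lines.

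Across the transcriptome most genes that differed between the pools were those called for siIGF2BP2 and not for siIGF2BP3. The difference was called (Benjamini-Hochberg adjusted p under 0.05 in edgeR's quasi-likelihood test) for 2137 of 11428 genes (18.7%), 1129 higher (9.88%) and 1008 lower (8.82%), and 57 of these (0.499%) differed at least 2-fold. Of the 2137, 1891 (88.5%) were also called for siIGF2BP2 and not for siIGF2BP3, 63 for siIGF2BP3 and not for siIGF2BP2, 27 for both in the same direction, 21 for both in opposite directions and 135 for neither. The siIGF2BP2 effect had the larger size in 1951. Over all genes the median size of the log2 effect was 0.128 for siIGF2BP2 and 0.061 for siIGF2BP3, while the median SE was 0.064 and 0.065. At nearly equal precision, siIGF2BP2 changed 4202 genes (36.8%), 2101 in each direction (18.4%), and siIGF2BP3 changed 267 (2.34%), 107 higher (0.936%) and 160 lower (1.40%). The 107 became 66 without siControl replicate 1 and 65 without siControl replicate 3 of sgIGF2BP3 cells. The 4 siRNA and 4 siControl libraries did not overlap for 30.6% of genes in sgIGF2BP2 cells and for 9.96% in sgIGF2BP3 cells.

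**Figure D2:**
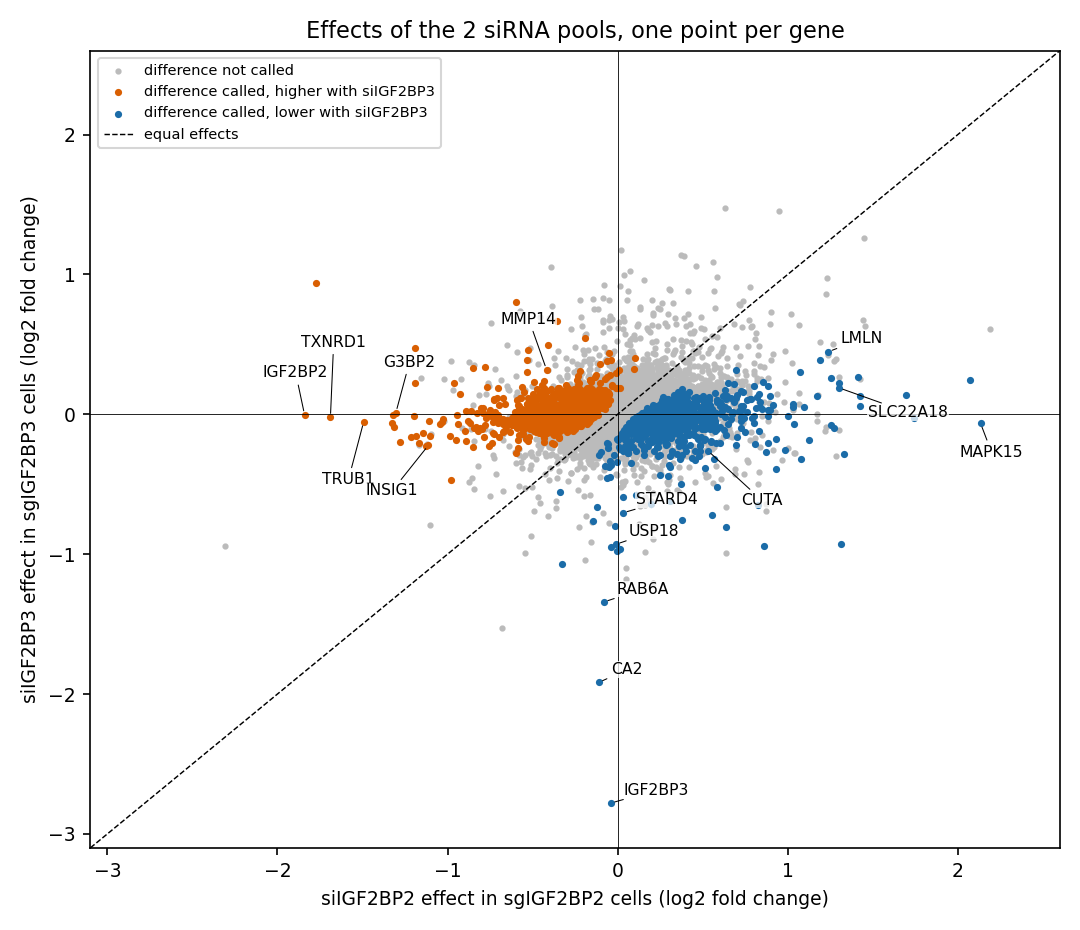
Effect of siIGF2BP3 in sgIGF2BP3 cells (log2 fold change, vertical) against the effect of siIGF2BP2 in sgIGF2BP2 cells (horizontal), 1 point for each of the 11428 genes tested. Colours mark the 1129 genes called higher and the 1008 called lower for the difference, the dashed line marks equal effects, and most coloured points lie along the horizontal axis.

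Genes called higher and lower for the difference also had different medians of transcript features. In GENCODE release 29, median 3′ untranslated length was 1605 bases for those called higher and 615 for those called lower, against 978 over all genes tested. Median GC content was 46.7%, 55.0% and 49.4% in the same order. Genes called lower after a single pool had similar medians for both pools, 1462.5 bases and 46.5% for siIGF2BP2 and 1682.5 bases and 46.0% for siIGF2BP3. Those called higher had 678.5 bases and 54.2% for siIGF2BP2, and 1289 bases and 52.7% for siIGF2BP3. These are descriptions, and the part of either property in the calls was not tested. With an offset for GC content and transcript length, 1951 of the 2137 genes were still called, among 2586 calls (1502 higher, 1084 lower). The same offset gave 512 calls for siIGF2BP3, 140 higher and 372 lower. For siIGF2BP2 it gave 4608 calls, 1963 higher and 2645 lower, so the even split of directions did not hold there.

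The 8 highest differences chosen by rule, among called genes with a mean of at least 4 CPM and with libraries that did not overlap in at least 1 line (36.6% of all genes), were all falls after siIGF2BP2. TXNRD1, the cytosolic thioredoxin reductase, a selenoprotein that recycles thioredoxin (ENSG00000198431, chromosome 12, 104215779 to 104350305, forward strand), stood at 333, 310.1, 312 and 305 CPM with siControl and at 101, 92.4, 99.8 and 98.3 CPM after siIGF2BP2. In sgIGF2BP3 cells it was at 322, 326, 319 and 321 CPM with siControl and at 310.4, 327, 309.9 and 321 CPM after siIGF2BP3. All 4 siIGF2BP2 libraries were far below the other 12, and the siIGF2BP3 libraries overlapped their controls. The difference was 1.67 (SE 0.048, edgeR adjusted p = 1.40e-40).

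TRUB1, a pseudouridine synthase, was at 24.4, 26.2, 23.4 and 25.3 CPM in siControl and 8.57, 8.62, 8.55 and 9.35 CPM in siIGF2BP2 libraries of sgIGF2BP2 cells. In sgIGF2BP3 cells its levels were 28.9, 25.2, 24.3 and 26.6 CPM with siControl and 25.7, 26.4, 22.2 and 26.3 CPM with siIGF2BP3. Only the siIGF2BP2 group was low, and the difference was 1.44, SE 0.12, edgeR adjusted p = 2.94e-16. G3BP2, a core protein of stress granules, fell from 159.9, 148, 159 and 149 CPM to 67.3, 63.3, 56.00 and 63.5 CPM after siIGF2BP2. It was at 149, 144, 140.4 and 159.8 CPM with siControl and 147, 147, 151 and 155 CPM with siIGF2BP3 in the other line, where the groups overlapped. Its difference was 1.32, SE 0.061, edgeR adjusted p = 2.01e-28.

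The other 4 followed the same pattern. THOC7, a subunit of the THO complex of mRNA export, had a difference of 1.32, SE 0.12, with 30.1 ± 1.18 CPM in siControl and 11.8 ± 2.297 CPM in siIGF2BP2 libraries (SD, n = 4). ATP7B, a copper-transporting ATPase, went from 14.3, 13.6, 14.6 and 13.3 CPM with siControl to 5.54, 5.93, 5.21 and 5.55 CPM with siIGF2BP2 and had a difference of 1.26, SE 0.14. PIGP, a subunit of the enzyme that starts glycosylphosphatidylinositol anchors, had 1.22, SE 0.16. DDAH1, which breaks down asymmetric dimethylarginine, had 1.19, SE 0.062, with 126 ± 4.96 CPM in siControl and 54.9 ± 2.69 CPM in siIGF2BP2 libraries. In sgIGF2BP3 cells the siIGF2BP3 libraries of all 4 genes overlapped their controls.

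At the other end, 5 of the 8 lowest differences were rises after siIGF2BP2 and the remaining 3 were falls after siIGF2BP3. MAPK15, an atypical MAP kinase linked to autophagy and cilium formation, was at 3.52, 2.49, 3.93 and 3.47 CPM with siControl and 14.4, 14.9, 14.1 and 15.5 CPM with siIGF2BP2. In sgIGF2BP3 cells it was at 4.104, 4.13, 3.97 and 3.13 CPM with siControl and 4.14, 3.58, 2.96 and 3.92 CPM with siIGF2BP3. The siIGF2BP2 libraries lay above all others, and the difference was −2.20, SE 0.22, edgeR adjusted p = 1.80e-12. SLC22A18, an organic cation transporter-like protein encoded in an imprinted region, went from 3.42, 3.34, 2.83 and 4.14 CPM to 8.31, 8.01, 9.37 and 8.11 CPM after siIGF2BP2 and had a difference of −1.11, SE 0.22. RAB26, a small GTPase of secretory granules, had −1.04, SE 0.16. CCDC40, needed to assemble motile cilia, had −1.01, SE 0.19, and MAP1A, a microtubule-associated protein, −0.99, SE 0.20. All 4 rose after siIGF2BP2 without overlap and were not called after siIGF2BP3.

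CA2, the cytosolic carbonic anhydrase II, was at 15.4, 13.5, 13.8 and 15.1 CPM with siControl and 3.49, 3.76, 3.53 and 4.43 CPM with siIGF2BP3. In sgIGF2BP2 cells it was at 12.5, 13.05, 14.8 and 13.1 CPM with siControl and 12.04, 11.8, 12.3 and 13.03 CPM with siIGF2BP2. It was low in the siIGF2BP3 libraries alone, and the difference was −1.81, SE 0.14, edgeR adjusted p = 3.86e-17. RAB6A, a GTPase of Golgi transport (chromosome 11, 73675638 to 73761137, reverse strand), was at 80.04, 85.6, 80.9 and 91.7 CPM with siControl and 36.97, 31.4, 30.9 and 34.3 CPM with siIGF2BP3. It was at 89.9, 87.9, 87.1 and 85.7 CPM with siControl and 87.97, 82.7, 78.3 and 83.2 CPM with siIGF2BP2 in sgIGF2BP2 cells, where the groups overlapped. Its difference was −1.26, SE 0.067, edgeR adjusted p = 4.60e-25. The other called members of the list of RAB GTPases and Golgi transport lay between −0.18 (RAB11B) and 0.70 (BICD2).

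In 21 genes the pools acted in opposite directions, each past the threshold. MMP14, a membrane-bound matrix metalloprotease, was at 169, 183, 179 and 186 CPM with siControl and 137, 125, 143 and 131 CPM with siIGF2BP2. In sgIGF2BP3 cells it was at 156, 167, 169 and 157 CPM with siControl and 206, 192, 213 and 201 CPM with siIGF2BP3. It fell in the first line and rose in the second with no overlap in either. The effects were −0.42, SE 0.043, edgeR adjusted p = 1.42e-12, and 0.32, SE 0.042, edgeR adjusted p = 8.80e-08. CUTA, a protein linked to copper tolerance and to membrane anchoring of acetylcholinesterase, rose after siIGF2BP2 (0.53, SE 0.053) and fell after siIGF2BP3 (−0.26, SE 0.057), with a difference of −0.79, SE 0.078. It shares exon bases with PHF1 on the opposite strand. ZNF385A, a zinc finger protein reported to bind p53, rose by 0.39 and fell by 0.24 on the log2 scale, and KRT79, a keratin, rose by 0.37 and fell by 0.50 on the log2 scale. KRT79 was low (4.395 ± 0.598 CPM after siIGF2BP3), and its calls were near the threshold (edgeR adjusted p = 0.025 and 0.0403).

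In 27 genes both pools acted in the same direction to an unequal extent. MAP1LC3C, an ATG8-family protein of autophagy, was at 421, 431, 436 and 477 CPM with siControl and 199, 188, 213 and 206 CPM with siIGF2BP2. In sgIGF2BP3 cells it was at 411, 399, 424 and 411 CPM with siControl and 350.1, 321, 359 and 374 CPM with siIGF2BP3. It fell in both lines without overlap. The effects were −1.13, SE 0.037 and −0.23, SE 0.036, and the difference was 0.90 (edgeR adjusted p = 2.70e-23). INSIG1, which retains the SREBP cleavage complex in the endoplasmic reticulum, changed by −1.11 and −0.22, and UBE3C, a proteasome-associated ubiquitin ligase, by −0.90 and −0.12. LMLN, a leishmanolysin-like peptidase, rose by 1.24 and 0.45.

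Gene lists were then read against the background of 9.88% called higher and 8.82% called lower, with a median difference of −0.0042 over all genes. The lists were drawn from general knowledge, with earlier results of these data known, and a member can stand in more than 1 of the 23. Members named beyond the 2 largest differences of a list were chosen after their values were seen. For the single pools the background is 18.4% in each direction for siIGF2BP2, and 0.936% higher and 1.40% lower for siIGF2BP3. Over the 680 genes tested from all lists, 84 were called higher and 65 lower, which is 21.9% and near the 18.7% of all genes. Counts of 2 or fewer moved by at most 2 when single libraries were left out, apart from the lower calls of ribosomal proteins (0 to 5). No list was tested as a set.

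**Figure D3:**
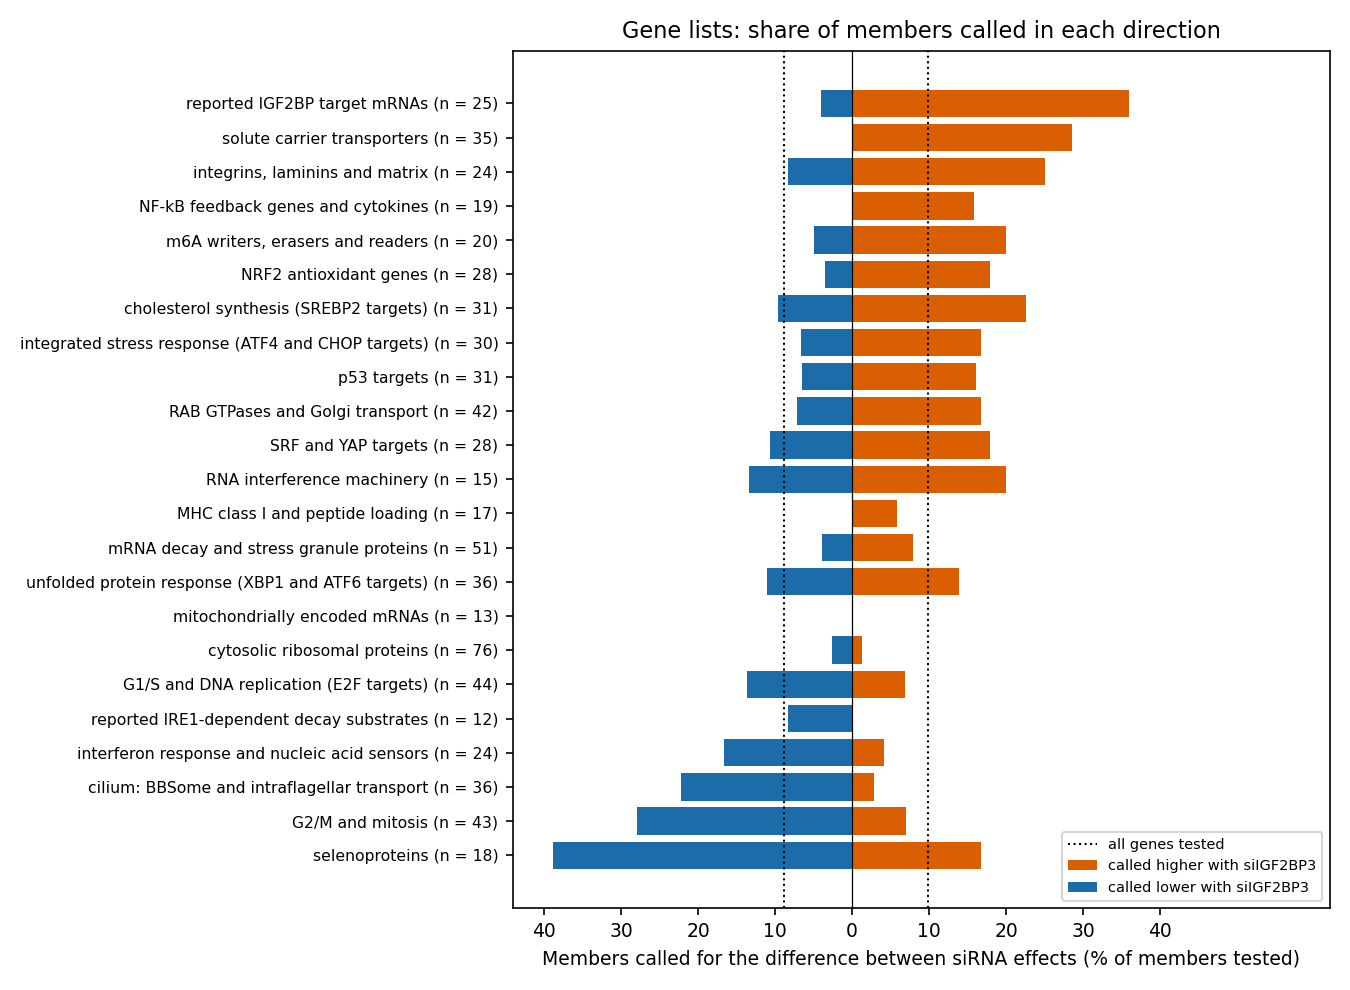
Share of the tested members of each of 23 gene lists called higher (right) or lower (left) for the difference between siRNA effects, in percent. Dotted lines mark the 9.88% and 8.82% of all genes tested, and the longest bars are 9 of 25 reported IGF2BP target mRNAs called higher and 7 of 18 selenoproteins called lower.

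Of 25 tested mRNAs reported as IGF2BP targets, 9 were called higher and 1 lower, with a median difference of 0.098. Each of the 10 was called for siIGF2BP2. For siIGF2BP3 edgeR called none of the 25, where 3 had an unadjusted p under 0.05 and DESeq2 called 1. HMGA1, an architectural chromatin protein, was at 3999.8, 4169, 4154 and 4309 CPM with siControl and 2139, 2100.0, 2288 and 2107 CPM with siIGF2BP2, and at 4062, 4092, 4148 and 4162 CPM with siControl and 4180.4, 3988, 4096 and 4141 CPM with siIGF2BP3. It fell to 51.9% of its control in the first line and overlapped its controls in the second, a difference of 0.94, SE 0.050, edgeR adjusted p = 6.53e-25. CCND1, which drives G1 progression as cyclin D1, was at 222, 242, 247 and 249 CPM and 136, 135, 143 and 135 CPM in the sgIGF2BP2 groups and had a difference of 0.85, SE 0.046, edgeR adjusted p = 1.98e-24. It shares exon bases with LTO1 on the opposite strand. The transcription factor MYC came next (0.54, SE 0.059, edgeR adjusted p = 4.34e-11), with 384 ± 17.9 CPM in siControl and 271 ± 9.53 CPM in siIGF2BP2 libraries. CDK6, HK2, BCL2L1, HDGF, CD44 and SLC2A1 followed, between 0.42 (CDK6) and 0.17 (SLC2A1). TK1, thymidine kinase, was the member called lower (−0.22, SE 0.060). SLC2A1 lost its call in 7 of the alternatives other than the 1.2-fold test.

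Selenoproteins, which carry selenocysteine and include the glutathione peroxidases and thioredoxin reductases, split in both directions. Of 18 tested, 3 were called higher and 7 lower, and all 10 were also called for siIGF2BP2. The higher members were TXNRD1, the methionine sulfoxide reductase MSRB1 (0.46, SE 0.089) and SELENOT of the endoplasmic reticulum (0.30, SE 0.053). The lower members were SELENOH, GPX1, SELENON, GPX4, the mitochondrial reductase TXNRD2, SELENOW and SELENOS, between −0.69 (SELENOH) and −0.24 (SELENOS). SELENOH, a nuclear member, was at 15.7, 15.9, 13.5 and 14.7 CPM with siControl and 21.2, 23.9, 24.4 and 21.5 CPM with siIGF2BP2. It was at 17.98, 14.6, 14.8 and 14.8 CPM with siControl and 13.1, 15.6, 14.9 and 14.5 CPM with siIGF2BP3, where the groups overlapped. GPX4, which reduces lipid peroxides, went from 126 ± 2.305 CPM to 162 ± 9.31 CPM after siIGF2BP2 and had a difference of −0.34, SE 0.057, edgeR adjusted p = 4.15e-06. The 2 thioredoxin reductases thus lay on opposite sides, and the list as a whole had a median difference of 0.011.

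Among NRF2 antioxidant genes, 5 of 28 were called higher and 1 lower. Apart from TXNRD1 the higher members were CBR1, TXN, TALDO1 and TKT, between 0.16 (TKT) and 0.29 (CBR1). HMOX1, the inducible haem oxygenase, lay lower (−0.30, SE 0.060), and the call was lost with both siControl groups pooled (−0.056, edgeR adjusted p = 0.414). HMOX1 is also 1 of the 2 genes that differed between the lines under siControl, by 0.24.

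In the cilium list 8 members were called lower for the difference, and all 8 rose after siIGF2BP2. Of 36 tested members of the BBSome and the intraflagellar transport trains these were the lower calls, 1 was called higher, 29 of 36 had a negative difference, and the median was −0.18. For siIGF2BP2 alone 21 were called higher and 2 lower, and for siIGF2BP3 edgeR and DESeq2 called none, with 2 at an unadjusted p under 0.05 and a median effect of 0.026. IFT88, a core subunit of the trains, was at 8.52, 7.93, 7.66 and 7.61 CPM with siControl and 12.6, 10.9, 13.2 and 10.3 CPM with siIGF2BP2. It was at 8.31, 8.62, 7.68 and 8.11 CPM with siControl and 7.496, 7.69, 6.98 and 6.46 CPM with siIGF2BP3. It rose without overlap in the first line and overlapped in the second, a difference of −0.74, SE 0.15, edgeR adjusted p = 0.000203. IFT122 had −0.51, SE 0.10, and DYNC2LI1, IFT22, IFT52, WDR19, WDR35 and IFT172 lay between −0.48 (DYNC2LI1) and −0.30 (IFT172). KIF3B, a motor subunit of the anterograde train, was the member called higher (0.21, SE 0.054). IFT122 shares exon bases with MBD4 on the opposite strand.

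G2/M and mitosis genes were also called lower more often than higher, with the cytokinesis genes ECT2 and ANLN on the other side. Of 43 tested, 12 were called lower and 3 higher, with a median difference of −0.084, and for siIGF2BP2 alone 18 were called higher and 5 lower. For siIGF2BP3 alone no member was called by edgeR or DESeq2, and 3 had an unadjusted p under 0.05. The lower members included 3 subunits of the NDC80 complex of the kinetochore, SPC25 (−0.49, SE 0.14), SPC24 (−0.45, SE 0.081) and NUF2 (−0.28, SE 0.090). Securin, PTTG1, had −0.31, SE 0.068, and the mitotic kinase PLK1 −0.21, SE 0.054. HMMR, a spindle protein, had −0.66, SE 0.22 and lost its call in 5 of the alternatives other than the 1.2-fold test. In edgeR's test against 1.2-fold, ECT2 and ANLN were the only 2 of the 15 called members that passed. ECT2, the RhoA exchange factor of cytokinesis, was at 77.2, 75.9, 80.9 and 66.8 CPM with siControl and 35.2, 36.2, 32.4 and 36.04 CPM with siIGF2BP2. It was at 79.4, 74.5, 80.8 and 79.1 CPM with siControl and 69.7, 79.6, 81.3 and 73.3 CPM with siIGF2BP3, so that the siIGF2BP2 group alone was low and the difference was 1.06, SE 0.079, edgeR adjusted p = 5.84e-18. ANLN, the contractile ring scaffold (0.44, SE 0.064), and BUB3 (0.21, SE 0.048) were the other higher members.

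Promoters of many G2/M genes are known to hold a cell cycle homology region, TTTGAA, and this was searched on both strands in the 250 bases before each RefSeq start (GRCh38.p14). It occurred in 21 of the 36 G2/M genes with a promoter in the table (58.3%), against 11.6% of all genes tested and 13.3% of the 35116 promoters in the table. It stood in 6 of 10 members called lower, 2 of 2 called higher and 13 of 24 not called (54.2%). A match is a description and not a binding site. To show that both directions hold the same letters, windows of 30 bases around the match are given 5′ to 3′ in the direction of the gene, with the match (TTTGAA or its reverse complement TTCAAA) in capitals, first for 3 genes called lower and then for 2 called higher. ECT2 has matches before 2 starts in the table, and 1 is shown.
PLK1, called lower, chr16:23678848-23678877, forward strand: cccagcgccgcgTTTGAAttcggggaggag
KIF23, called lower, chr15:69414282-69414311, forward strand: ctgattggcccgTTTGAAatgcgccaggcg
HMMR, called lower, chr5:163460598-163460627, forward strand: gggagaTTTGAATTTGAAaccggtagggag
ECT2, called higher, chr3:172750599-172750628, forward strand: tcgttgggcttaTTTGAAacacacgcacaa
ANLN, called higher, chr7:36389830-36389859, forward strand: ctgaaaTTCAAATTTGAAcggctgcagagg

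G1/S and DNA replication genes were called higher in 3 of 44 and lower in 6 of 44, near the background. CCNE1, cyclin E1, had a difference of 0.74, SE 0.078, edgeR adjusted p = 9.11e-12 and CDC25A, the phosphatase that activates CDK2, 0.38, SE 0.060, both through falls after siIGF2BP2. MCM3 (−0.28, SE 0.051) and MCM5 (−0.19, SE 0.051), subunits of the replicative helicase, lay lower, and both were called lower after siIGF2BP3 itself (−0.17, SE 0.037 and −0.24, SE 0.036).

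**Figure D4:**
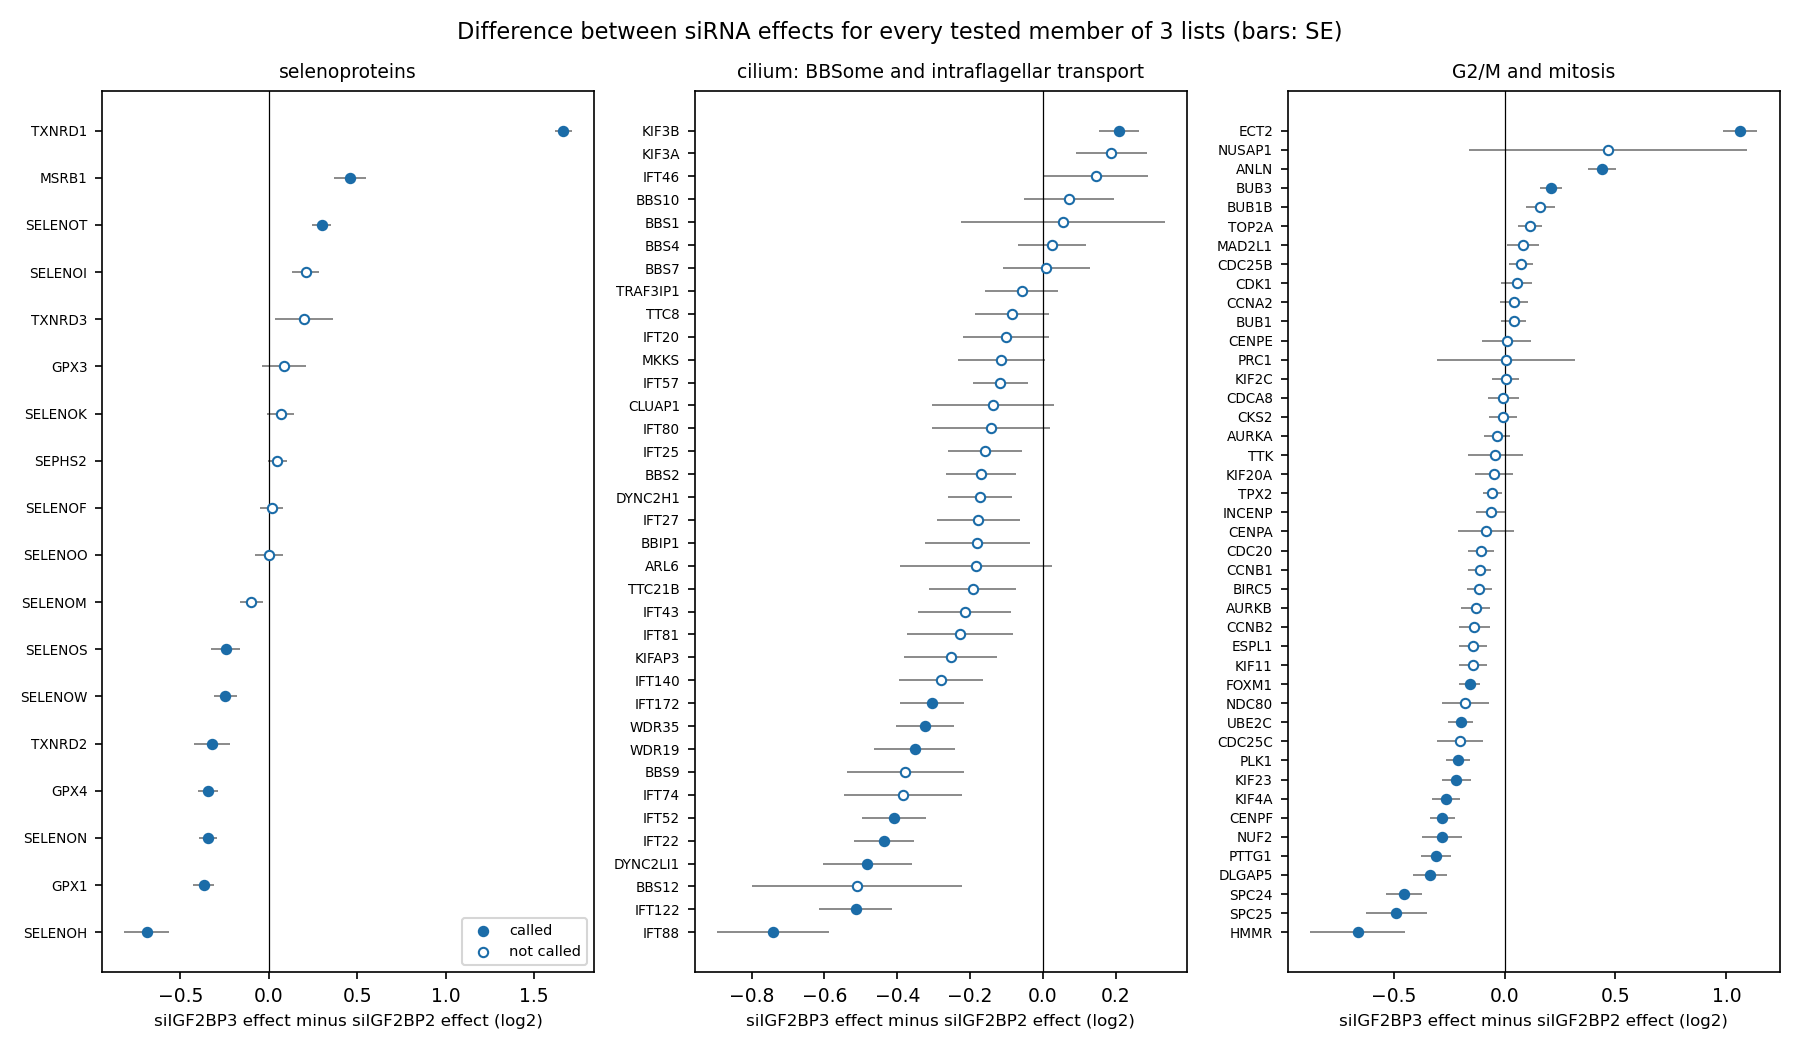
Difference between siRNA effects (log2, horizontal) for every tested member of the selenoprotein, cilium and G2/M lists. Bars are the standard error, filled points are called and open points are not; TXNRD1 and ECT2 lie far to the right of their lists, and 8 cilium genes and 12 G2/M genes are called to the left.

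Cholesterol synthesis held members that fell after either pool. Of 31 SREBP2 targets, 7 were called higher and 3 lower for the difference (median −0.0073), while 13 fell after siIGF2BP2 (18.4% of all genes) and 5 after siIGF2BP3 (1.40% of all genes). STARD4, a sterol transfer protein, was at 26.3, 23.6, 24.9 and 24.6 CPM with siControl and 14.5, 14.8, 15.1 and 16.4 CPM with siIGF2BP3, and at 26.3, 26.4, 27.9 and 28.1 CPM and 26.5, 27.1, 28.3 and 28.9 CPM in the sgIGF2BP2 groups. It was low after siIGF2BP3 alone and had a difference of −0.74, SE 0.10, edgeR adjusted p = 2.50e-08. INSIG1 (0.89, SE 0.081) and MSMO1 (0.36, SE 0.086) lay at the other end. SREBF1 (−0.36, SE 0.053) was lower in the difference through a rise after siIGF2BP2. The higher calls of IDI1, ACAT2 and SC5D were lost in 16, 11 and 10 alternatives, the 1.2-fold test aside. The 7 higher calls became 3 without siControl replicate 3 of sgIGF2BP2 cells. They became 4 without siControl replicate 1 or siIGF2BP2 replicate 1 or 4 of that line, and without siControl replicate 2 or siIGF2BP3 replicate 2 or 3 of sgIGF2BP3 cells.

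Solute carrier transporters, a broad family of membrane transporters, were called higher in 10 of 35, with a median of 0.092, and 24 of 35 had a positive difference. None was called lower by edgeR or DESeq2, and 1 lower value had an unadjusted p under 0.05. SLC39A10, a zinc importer, was at 27.6, 28.9, 26.2 and 26.6 CPM with siControl and 18.7, 20.02, 18.5 and 18.5 CPM with siIGF2BP2, and at 27.1, 25.4, 27.9 and 29.1 CPM and 27.4, 31.00, 26.4 and 30.1 CPM in the sgIGF2BP3 groups, a difference of 0.61, SE 0.091, edgeR adjusted p = 3.43e-07. SLC30A9, of the zinc efflux family, had 0.48, SE 0.077. SLC4A7, a bicarbonate cotransporter (0.44, SE 0.10), SLC12A2, a sodium, potassium and chloride cotransporter (0.40, SE 0.084), and SLC7A5, the large neutral amino acid carrier (0.34, SE 0.050), followed. Without siIGF2BP2 replicate 3, the library that stood apart, 7 transporters were called higher.

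The lists of cell adhesion and cytoskeleton held genes in both directions. Of 24 integrin, laminin and matrix genes 6 were called higher and 2 lower, and of 28 SRF and YAP targets 5 and 3. The 2 lower calls of the first list became 1 without siControl replicate 3 of sgIGF2BP2 cells. For SRF and YAP targets the 5 became 3 without siControl replicate 1 or siIGF2BP2 replicate 3 of sgIGF2BP2 cells, or siControl replicate 4 or siIGF2BP3 replicate 2 of sgIGF2BP3 cells, and the 3 became 1 without siControl replicate 3 of the latter. NT5E, the ecto-5′-nucleotidase CD73, was at 8.06, 6.29, 8.69 and 6.86 CPM with siControl and 3.12, 5.24, 3.94 and 4.99 CPM with siIGF2BP2. It was at 6.74, 7.403, 6.33 and 6.502 CPM with siControl and 8.21, 9.22, 8.78 and 7.98 CPM with siIGF2BP3, so that the siRNA groups lay on opposite sides of their controls without overlap, although only the fall was called (−0.78, SE 0.13, edgeR adjusted p = 1.69e-06, against 0.33, SE 0.12, edgeR adjusted p = 0.143). Its difference was 1.11, SE 0.18, edgeR adjusted p = 1.69e-06. SRPX, a sushi-repeat protein, was at 30.9, 34.2, 30.02 and 31.7 CPM and 13.3, 13.9, 15.5 and 12.1 CPM in the sgIGF2BP2 groups, with a difference of 1.06, SE 0.10. CALD1, the actin-binding caldesmon, rose after both pools, by 0.70 and 0.31, and the rise after siIGF2BP3 was smaller (difference −0.38, SE 0.073, edgeR adjusted p = 6.09e-05).

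RNA silencing and decay proteins included 2 Argonautes. AGO2, the slicing Argonaute, was at 362, 356, 352 and 354 CPM with siControl and 267, 256, 228 and 265 CPM with siIGF2BP2. It was at 363, 361, 369 and 368 CPM with siControl and 375, 369, 361 and 377 CPM with siIGF2BP3, where the groups overlapped, and the difference was 0.51, SE 0.049, edgeR adjusted p = 5.34e-13. AGO1 (0.44, SE 0.058) and DROSHA (0.24, SE 0.069) also lay higher and TNRC6B (−0.23, SE 0.067) and DGCR8 (−0.14, SE 0.051) lower, among 15 tested. DGCR8 lost its call in 11 alternatives other than the 1.2-fold test. Of 51 mRNA decay and stress granule genes 4 were called higher and 2 lower, among them G3BP2, the decapping enzyme DCP2 (0.47, SE 0.087) and the deadenylase subunit PAN2 (−0.62, SE 0.13), which shares exon bases with CNPY2 on the same strand. The 4 became 2 without siControl replicate 1 or 4 or siIGF2BP3 replicate 3 of sgIGF2BP3 cells. Of 20 m6A writers, erasers and readers 4 were called higher and 1 lower: RBM15B (0.37, SE 0.052), VIRMA (0.22, SE 0.059), ALKBH5 (0.17, SE 0.059) and ELAVL1 (0.16, SE 0.047) against METTL3 (−0.23, SE 0.075). The lower call of METTL3 was lost in 4 alternatives and the higher call of ALKBH5 in 6, the 1.2-fold test aside. With 1 library left out the m6A list had 0 (without siControl replicate 4 of sgIGF2BP3 cells) to 3 (without siControl replicate 3 of that line) lower calls, and with the offset for GC content and length 4. RBM15B fell after siIGF2BP2 (−0.18) and rose after siIGF2BP3 (0.19). RBM15B shares exon bases with DCAF1 and METTL3 with TOX4, each on the opposite strand.

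In the stress and immune lists 5.88% to 25% of the tested members were called, against 18.7% of all genes. Unfolded protein response genes were called higher in 5 of 36 and lower in 4 (FKBP14 0.58, SE 0.13, SEC61B 0.26, SE 0.055, SEC61A1 −0.21, SE 0.043), and ATF4 and CHOP targets in 5 and 2 of 30 (TRIB3 0.47, SE 0.072, PPP1R15A −0.31, SE 0.048). Without siIGF2BP2 replicate 3 the first list had 2 members called lower. Of 12 reported substrates of IRE1-dependent decay, RNPEP alone was called (−0.24, SE 0.057). The interferon list had 1 of 24 called higher and 4 called lower, the latter STAT2 (−0.41, SE 0.072), BST2 (−0.27, SE 0.064), DDX60 (−0.69, SE 0.20) and USP18. USP18, a negative regulator of interferon signalling, was at 8.795, 6.01, 5.57 and 8.27 CPM with siControl and 4.72, 3.46, 2.54 and 3.92 CPM with siIGF2BP3, without overlap, and had a difference of −0.92, SE 0.20, edgeR adjusted p = 0.000283. In the NF-kB list 3 of 19 were called higher, SERPINB9, an inhibitor of granzyme B (1.18, SE 0.21), BIRC3 (0.54, SE 0.14) and IL11 (0.51, SE 0.15), and in the MHC class I list PDIA3 alone of 17 (0.19, SE 0.044).

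Among RAB GTPases and Golgi transport genes 7 of 42 were called higher and 3 lower. BICD2, a dynein adaptor that binds RAB6 (0.70, SE 0.061), RAB5A (0.53, SE 0.10) and RAB8B (0.52, SE 0.085) led the higher members, all through siIGF2BP2. None of the 13 mitochondrially encoded mRNAs was called for the difference by edgeR or DESeq2, and 0 had an unadjusted p under 0.05. Of 76 cytosolic ribosomal protein genes 1 was called higher (RPS4X, 0.17, SE 0.048) and 2 lower (RPL13A among them, −0.14, SE 0.052). That balance depended on the processing, with 10 higher and 0 lower under the offset for GC content and length, and 3 higher and 0 lower without siIGF2BP2 replicate 3. It went the other way with both siControl groups pooled (1 higher, 20 lower) and without siIGF2BP2 replicate 1 (5 lower).

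The same contrast of the 2 targets exists for inducible knockout, in other libraries of the same 2 lines (doxycycline at 250 ng/ml for 72 hours against DMSO, 16 libraries), and its values were set beside the siRNA values. The knockout difference was called for 333 genes (2.91%), 193 higher (1.69%) and 140 lower (1.23%). Of these, 112 were also called for the siRNA difference, which is 33.6% of the knockout calls and 5.24% of the siRNA calls, 45 in the same and 67 in the opposite direction. Without the targets IGF2BP2 and IGF2BP3, 110 were called for both, 43 of them in the same direction. Over all 11428 genes the 2 differences had the same sign in 49.6%, and over the 2137 called for siRNA in 47.0%. The siRNA difference itself differed from the knockout difference for 1448 genes (12.7%), of which 1074 were among the 2137.

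IGF2BP2 had a knockout difference of 1.39, SE 0.067 and IGF2BP3 of −1.44, SE 0.061, both in the direction of the siRNA difference. With Dox, mean IGF2BP3 went from 180 to 56.2 CPM in sgIGF2BP3 cells and from 179 to 151 CPM in sgIGF2BP2 cells. Mean IGF2BP2 went from 85.3 to 33.9 CPM in sgIGF2BP2 cells and from 94.4 to 97.6 CPM in sgIGF2BP3 cells. Of the other 14 genes among the 8 highest and 8 lowest, none was called for the knockout difference by edgeR or DESeq2, and 1 had an unadjusted p under 0.05. Their knockout differences lay between −0.17 (TRUB1) and 0.33 (RAB26). All 14 were called when the siRNA and knockout differences were tested against each other (for TXNRD1 1.65, SE 0.066, edgeR adjusted p = 1.37e-31, for CA2 −1.96, SE 0.18, edgeR adjusted p = 1.09e-13). The 14 were chosen for the size of their siRNA difference, which enters that test, so the choice itself favoured these calls. Genes called for both in the same direction, targets aside, were led by HMGA1 (0.94 with siRNA, 0.29, SE 0.050, edgeR adjusted p = 0.000124 with knockout), MAP1LC3C (0.90 and 0.30, SE 0.052, edgeR adjusted p = 6.99e-05), CFAP69, a cilium-associated protein (−0.62 and −0.71, SE 0.19, edgeR adjusted p = 0.0228), and EVI5L, a RAB GTPase-activating protein (−0.35 and −0.52, SE 0.12, edgeR adjusted p = 0.00565). The siRNA calls of CFAP69 and EVI5L were each lost in 3 alternatives, the 1.2-fold test aside.

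**Figure D5:**
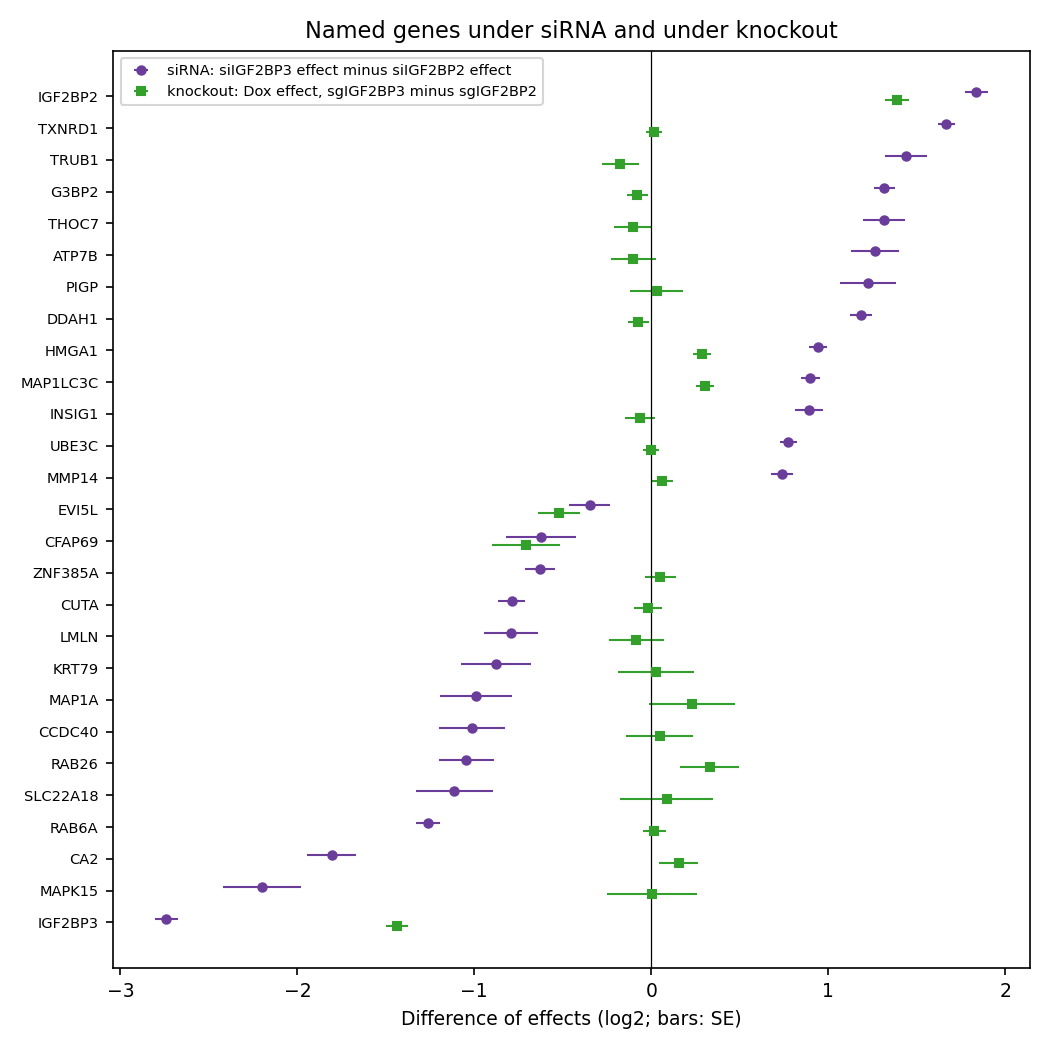
Difference of effects (IGF2BP3 minus IGF2BP2, log2, horizontal) under siRNA (circles) and under inducible knockout (squares) for the genes with the largest siRNA differences and those chosen for both pools or for knockout. Bars are the standard error; besides the 2 targets, HMGA1, MAP1LC3C, CFAP69 and EVI5L have called values on the same side, and most other knockout values lie near 0.

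Of 31 tested p53 targets 5 were called higher and 2 lower for the siRNA difference. For the knockout difference 12 were called lower (1.23% of all genes) and 0 higher by edgeR, with 0 higher also by DESeq2 and at an unadjusted p under 0.05. Called in opposite directions were 3 of the 31, against 67 of all 11428 genes. FAS, a death receptor, was at 21.1, 21.5, 19.3 and 21.4 CPM with siControl and 16.02, 14.9, 16.1 and 13.97 CPM with siIGF2BP2. It was at 22.5, 21.3, 20.6 and 21.8 CPM with siControl and 24.5, 25.3, 21.4 and 23.9 CPM with siIGF2BP3, so that it fell in sgIGF2BP2 cells without overlap and overlapped in sgIGF2BP3 cells. The siRNA difference was 0.61, SE 0.10, edgeR adjusted p = 5.70e-06 and the knockout difference −0.55, SE 0.10, edgeR adjusted p = 0.000188, and they differed by 1.16 (edgeR adjusted p = 4.31e-09). With Dox against DMSO, mean FAS went from 17.8 to 32.5 CPM in sgIGF2BP2 cells and from 18.2 to 22.6 CPM in sgIGF2BP3 cells. Its negative knockout difference was thus a smaller rise in sgIGF2BP3 cells and not a fall. CDKN1A, the p21 inhibitor of cyclin-dependent kinases (0.38, SE 0.046 with siRNA, −0.41, SE 0.046 with knockout), and ZMAT3 (0.41, SE 0.089 and −0.48, SE 0.087) were called in opposite directions too. GDF15 was called for siRNA alone (0.55, SE 0.17, edgeR adjusted p = 0.0172, against −0.63, SE 0.19, edgeR adjusted p = 0.0565), and its siRNA and knockout differences differed by 1.18 (edgeR adjusted p = 0.000741). Mean GDF15 also rose with Dox in both lines, from 4.04 to 9.87 CPM in sgIGF2BP2 cells and from 3.92 to 6.25 CPM in sgIGF2BP3 cells. TP53I3 and DDB2 were the lower members of the list. Their calls were lost in 5 and 19 alternatives, the 1.2-fold test aside, and both without siIGF2BP2 replicate 3. The 5 higher calls became 3 without siControl replicate 1 of sgIGF2BP2 cells. FAS shares exon bases with ACTA2 on the opposite strand. NT5E (1.11 with siRNA, −0.71, SE 0.17, edgeR adjusted p = 0.00728 with knockout) and CALD1 (−0.38 and 0.27, SE 0.077, edgeR adjusted p = 0.0375) also lay on opposite sides.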

How the data were processed

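Poly(A) RNA of 40 RKO libraries, 4 in each of 10 groups, was sequenced from a stranded kit, per the labels' protocols. Values are raw counts, whole numbers per gene and library for 19962 genes in 1 table as deposited by the authors. Per the submitters' processing notes, bcl2fastq 2.20.0.422, STAR 2.7.5c and genome build hg38 were used, and the counting tool, its strand setting and the handling of s4U conversions are not given in the sources used here.

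All 40 libraries were fitted in 1 model of 10 groups with edgeR 4.0.16 (R 4.3.3), with TMM scaling, the default expression filter (11428 genes kept, 99.98% of counts) and quasi-likelihood tests. P-values were adjusted over all genes tested by Benjamini-Hochberg, and called means an adjusted p under 0.05. A standard error (SE) is the log2 value divided by the square root of its F statistic. CPM values use TMM library sizes, except those of the cell type markers, which use total counts. The fit was tested on simulated data.

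Named genes were the targets, the 8 highest and 8 lowest differences, the 4 largest for opposite and for same direction of both pools, the 2 largest called members of each list, and the 4 largest shared with knockout, at a mean of at least 4 CPM except for targets and list members. Values of some list members are not reported here. Members and lists were chosen with earlier results of these data known. Gene symbols matched 19895 IDs, and transcript features came from GENCODE 29 and promoters from RefSeq. Alternatives were DESeq2 1.42.0, its size factors, other filters, only the 16 libraries, a test against 1.2-fold, thinning, a replicate block and each siRNA library left out. Pooled controls and an offset for GC content and length were added after seeing the data.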

Additional observations from a re-analysis of the deposited data

Results flagged for a closer look

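Among the 21 genes called for the difference and for both pools in opposite directions, 4 were chosen for the size of their difference. Being called for the difference was part of that choice, so the p-values below are no separate check. The log2 differences were −0.88 for KRT79 (edgeR adjusted p = 0.000667), −0.79 for CUTA (edgeR adjusted p = 1.01e-12), 0.74 for MMP14 (edgeR adjusted p = 4.65e-16) and −0.63 for ZNF385A (edgeR adjusted p = 2.04e-08). In MMP14, all 4 siIGF2BP2 libraries lay below and all 4 siIGF2BP3 libraries above their controls.

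Of the 67 genes called on opposite sides for the siRNA and the knockout difference, 3 named genes are listed here. The choice also asked that the difference between both values be called, so that call is no separate check. It was 1.16 for FAS (edgeR adjusted p = 4.31e-09), 1.83 for NT5E (edgeR adjusted p = 4.66e-08) and −0.65 for CALD1 (edgeR adjusted p = 5.56e-06).

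In 4 groups 1 library lay far from the other 3. TRUB1 was at 9.35 CPM in siIGF2BP2 replicate 4 and at 8.55 to 8.62 CPM in the others of that group. THOC7 was at 35.6 CPM in siControl replicate 4 of sgIGF2BP3 cells and at 28.4 to 29.4 CPM in the others. MAPK15 was at 3.13 CPM in the same library and at 3.97 to 4.13 CPM in the others. ZNF385A was at 50.3 CPM in siControl replicate 3 of sgIGF2BP3 cells and at 45.2 to 46.0 CPM in the others. Among 104 groups tested, Dixon's criterion marks about 1 in 20 by chance.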

How the results depend on the processing

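The difference called 1808 genes with thinned libraries, 2041 without a low-count filter, 2050 with DESeq2, 2147 with its size factors, 2163 in the 16 libraries alone, 2164 with the mean-count filter and 2586 with the GC and length offset. Against 1.2-fold it called 273 (173 higher, 100 lower), siIGF2BP2 512 (235 and 277), siIGF2BP3 16 (1 and 15), the knockout difference 6, and siRNA and knockout shared 2 in the same direction. That test asks for a larger change by construction. With both siControl groups pooled, which compares the siRNA groups directly, the difference called 4095 (2059 and 2036) and siIGF2BP3 542 (229 and 313). With the offset, siIGF2BP3 called 512 (372 lower), the knockout difference 725, and 130 were shared in the same direction (the cause was not tested).

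Leaving out 1 library gave 1847 to 2098 calls for the difference (1019 to 1118 higher, 828 to 984 lower), 3653 to 4210 for siIGF2BP2 and 179 to 310 for siIGF2BP3 (65 to 123 higher, 113 to 187 lower). The replicate block gave 2228 calls for the difference, 4293 for siIGF2BP2 and 291 for siIGF2BP3, 2132 of the 2137 among them (first result). Between the siRNA and siControl wells of a line, the numbers showed no pairing. Deviations of same-numbered wells correlated at −0.090 to 0.024, and the own number gave the highest correlation in 1 of 8 pairs. Other pairs of groups were not checked for shared numbers. Over the named genes and called list members, 4035 values kept direction and side of the threshold, 411 lost the call and 0 changed sign. Depth limits the precision: the median SE of a difference was 0.091.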

Other observations

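The G1/S and G2/M lists were also read for the knockout difference. Of 44 G1/S genes 18 were called higher (1.69% of all genes) and 0 lower by edgeR, with 0 lower also by DESeq2 and at an unadjusted p under 0.05, whereas the siRNA difference called 3 higher and 6 lower. Called in opposite directions were 3 of the 44, against 67 of all 11428 genes. MCM5, a subunit of the replicative helicase, had a siRNA difference of −0.19, SE 0.051 and a knockout difference of 0.25, SE 0.051. RRM2, a subunit of ribonucleotide reductase, had −0.15, SE 0.042 and 0.15, SE 0.042. TK1, thymidine kinase, had −0.22, SE 0.060 and 0.20, SE 0.060. Of 43 G2/M genes the knockout difference called 2 higher by edgeR and 5 by DESeq2, and 0 lower by either. At an unadjusted p under 0.05, 15 were higher and 2 lower. FOXM1, a transcription factor of G2/M genes, was the 1 member called in opposite directions (−0.16, SE 0.047 and 0.30, SE 0.047). These reads were chosen after the values were seen.

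For 135 genes the difference was called by edgeR although neither pool was called alone. Of these, 62 were higher and 73 lower, with a median size of 0.238 (log2), and 7 differed at least 2-fold.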
